A study of Mus musculus with 6 samples.

Results

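The receptor tyrosine kinase Ret, the 4 ligands of the GDNF family (Gdnf, Nrtn, Artn and Pspn) and the 4 co-receptors that present these ligands to Ret (Gfra1, Gfra2, Gfra3 and Gfra4) were followed in the developing mouse gut with and without Ret. These 9 genes were chosen by name as the known ligand and receptor family, with earlier results of these data known. Each was found as 1 line of its own among the 23233 gene lines of the deposited table. Messenger RNA was measured by paired-end sequencing of 75 bp reads from whole guts dissected at stage E10.5, in mid-gestation. There were 3 wildtype samples and 3 samples in which both Ret alleles were null, all with the strain label C57BL/6J and all described in the series as male. The labels name no treatment, and they say neither how the null allele was built nor whether a sample was 1 embryo or a pool.

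Ligands of this family are secreted dimers. Each binds by preference to 1 co-receptor, held to the cell surface by a lipid anchor, and the ligand with its co-receptor then brings Ret together so that its kinase becomes active. Gdnf prefers Gfra1, neurturin (Nrtn) prefers Gfra2, artemin (Artn) prefers Gfra3 and persephin (Pspn) prefers Gfra4. In the gut at this stage, mesenchyme makes Gdnf, and the vagal neural crest cells that enter from the foregut and later form the enteric nervous system carry Ret and Gfra1. Without Ret these cells fail to populate most of the gut. Ret and Gfra1 also serve in the nephric duct, whose branching is driven by Gdnf, and Ret, Gfra2 and Gfra3 serve in peripheral neurons.

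The table gives the authors' FPKM (fragments scaled to transcript length and to library size) once per genotype, made from the 3 samples of that genotype, so no value per sample, no spread between samples and no read depth can be shown. Because FPKM is scaled to transcript length, levels of different genes can be set side by side. Each log2 fold change, called log2 change below, is that of the Ret null value over the wildtype value. A gene is said to rise or fall only where the authors' deposited table gives a q under 0.05 (Cuffdiff, adjusted over 13430 tested lines), and errors after ± are standard errors derived from the authors' test statistic. Of all tested lines 14.6% were called, 8.88% lower and 5.69% higher in Ret null gut.

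Other values that differed between the genotypes bear on the members. Xist, the noncoding RNA of the inactive X of female cells, was at 0.136 FPKM in wildtype guts and 31.8 FPKM in Ret null guts, and the 4 Y-linked genes listed (Ddx3y, Eif2s3y, Kdm5d and Uty) all fell, by 0.71 to 0.99 on the log2 scale. The Ret null value of Xist goes against the description of all embryos as male. Markers of neighbouring tissue, in lists chosen with earlier results of these data known, differed as well. All 6 tested somite and skeletal muscle markers fell, their list of 10 (4 of them untested) summing to 62.1 FPKM in wildtype guts and 4.41 in Ret null. All 8 liver markers rose, from a sum of 22.1 to 310.1 FPKM, and all 12 gut endoderm markers rose, from 147.8 to 328.1 FPKM. With 1 value per genotype the members could not be computed without any library, and the part of tissue or sex make-up in their values was not tested.

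The family did not move as one. The table placed Ret and Gfra3 lower and Gdnf and Gfra1 higher in Ret null gut, while Nrtn, Artn, Gfra2 and Gfra4 did not pass. Pspn was left untested by the authors. The 4 called genes are 50% of the 8 tested members, against 14.6% of all tested lines. Ret, the gene that the design altered, is 1 of these 4, so the share does not describe the other members alone. The median log2 change of the 8 tested members was 0.11, and that of all tested lines was 0.01. The share called varied with level over the whole table, from 34.7% of lines with a mean under 1 FPKM to 6.43% at 100 FPKM and over. It was 21.5% from 1 to 5 FPKM, where Ret and Gfra3 lie, 14.1% from 5 to 20 FPKM, where Gdnf lies, and 8.18% from 20 to 100 FPKM, where Gfra1 lies.

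**Figure D1:**
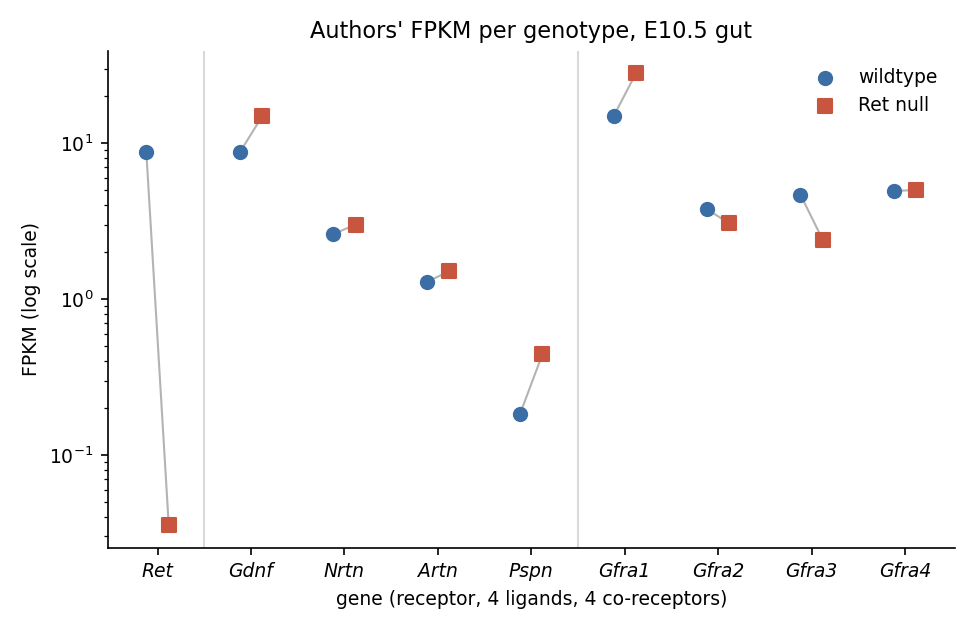
The authors' FPKM of each of the 9 genes on a log scale, with circles for wildtype and squares for Ret null, joined by a line per gene. Ret drops from 8.80 to 0.0354 FPKM, Gdnf and Gfra1 stand higher in Ret null, Gfra3 stands lower, and Pspn is under 1 FPKM in both genotypes.

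Ret itself checks the genotype. It was the second most abundant member in wildtype gut, at 8.80 FPKM, and the lowest in Ret null gut, at 0.0354 FPKM. The remaining value was 0.402% of wildtype. The log2 change was -7.96 ± 1.18 (q = 0.0042 in the authors' deposited table), with an implied 95% interval from -10.26 to -5.65. Of the 1192 genes that fell, none above 0 in both genotypes fell further. Its size rests on a Ret null value near 0, and with 1 FPKM added to both genotypes it was -3.24.

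The Ret line runs over the whole gene on the minus strand of chromosome 6, from 118151748 to 118197744 in mm10, and its ends equal those of the RefSeq gene. GENCODE lists 2 transcripts, the longest of 5456 bases in 20 exons. The value is 1 figure for all of these exons, so it does not show where in the gene the null allele differs. The lines on either side were Csgalnact2, 12.6 kb away, with 4.70 FPKM in wildtype guts and 4.41 in Ret null (q = 0.831 in the authors' deposited table), and 1700069P05Rik, listed at 0 in both genotypes. Within 1 Mb on each side of Ret, 1 of 11 tested lines was called. It was the chemokine gene Cxcl12, named after its value was seen, which fell from 207.5 to 163.4 FPKM (q = 0.0405 in the authors' deposited table).

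Of the ligands, Gdnf was the most abundant in both genotypes and the only one called. It stood at 8.73 FPKM in wildtype guts and 14.9 FPKM in Ret null gut, a 1.71-fold rise. The log2 change was 0.77 ± 0.20, with an implied 95% interval from 0.37 to 1.17. In the authors' deposited table its q was 0.000775, which no line goes below. In wildtype gut the level of Gdnf was close to that of Ret, and in Ret null gut Gdnf ranked second among the 9 genes. As an alternative, each test statistic of the authors was read as a normal deviate and the resulting p adjusted over all tested lines (the normal p), which called 4.5% of lines, 2.78% lower and 1.72% higher. Ret, Gdnf and Gfra1 passed it, and the adjusted normal p of Gdnf was 0.00491.

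Nrtn, the preferred ligand of Gfra2, stood at 2.61 FPKM in wildtype guts and 3.01 in Ret null, which is 0.20 ± 0.44 on the log2 scale (q = 0.825 in the authors' deposited table). Its interval runs from -0.67 to 1.07. Artn, the preferred ligand of Gfra3, stood at 1.29 and 1.51 FPKM, which is 0.22 ± 0.49 on the log2 scale (q = 0.777 in the authors' deposited table). Its interval runs from -0.74 to 1.19. Both intervals include a change of the size seen in Gdnf, so a rise like that of Gdnf could not be told from no change for either. Pspn stood at 0.184 and 0.444 FPKM, the lowest member in wildtype gut, and no error or q is available for it.

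The 4 ligands summed to 12.8 FPKM in wildtype guts and 19.8 FPKM in Ret null gut. Gdnf made up 68.1% of the sum in wildtype and 75.0% in Ret null, Nrtn 20.4% and 15.1%, Artn 10.1% and 7.58%, and Pspn 1.43% and 2.24%. Most of the higher ligand sum was therefore Gdnf, which added 6.16 FPKM, against 0.393 for Nrtn, 0.216 for Artn and 0.260 for Pspn. The order of the 4 ligands was the same in both genotypes. These shares are descriptions of the authors' values and were not tested.

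Among the co-receptors, Gfra1 was the most abundant of all 9 genes in both genotypes and rose. It stood at 14.9 FPKM in wildtype guts and 28.1 FPKM in Ret null, a 1.89-fold rise, and its log2 change was 0.92 ± 0.19. In the authors' deposited table it shared the q of Gdnf, 0.000775. The implied 95% interval runs from 0.55 to 1.28, which is the narrowest of the 8 tested members. The adjusted normal p was 7.10e-05. The direction of Gfra1 was thus opposite to that of Ret, the receptor it serves in crest cells.

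Gfra3, the co-receptor of artemin and a gene of peripheral neurons and Schwann cell precursors, fell. It stood at 4.68 FPKM in wildtype guts and 2.40 FPKM in Ret null, 1.95-fold lower, and its log2 change was -0.97 ± 0.37. In the authors' deposited table its q was 0.00206. The implied 95% interval runs from -1.69 to -0.24. With the normal p the adjusted value was 0.146, so this call ended under that alternative. It was the only one of the 4 calls to end there.

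Gfra2, which serves neurturin in parasympathetic and later enteric neurons, stood at 3.77 FPKM in wildtype guts and 3.06 in Ret null, which is -0.30 ± 0.30 on the log2 scale (q = 0.327 in the authors' deposited table). Its interval, from -0.88 to 0.28, includes part of the range of Gfra3. Gfra4 stood at 4.94 and 5.01 FPKM, which is 0.02 ± 0.38 on the log2 scale (q = 0.982 in the authors' deposited table), with an interval from -0.72 to 0.76. That interval leaves a change of either sign possible.

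**Figure D2:**
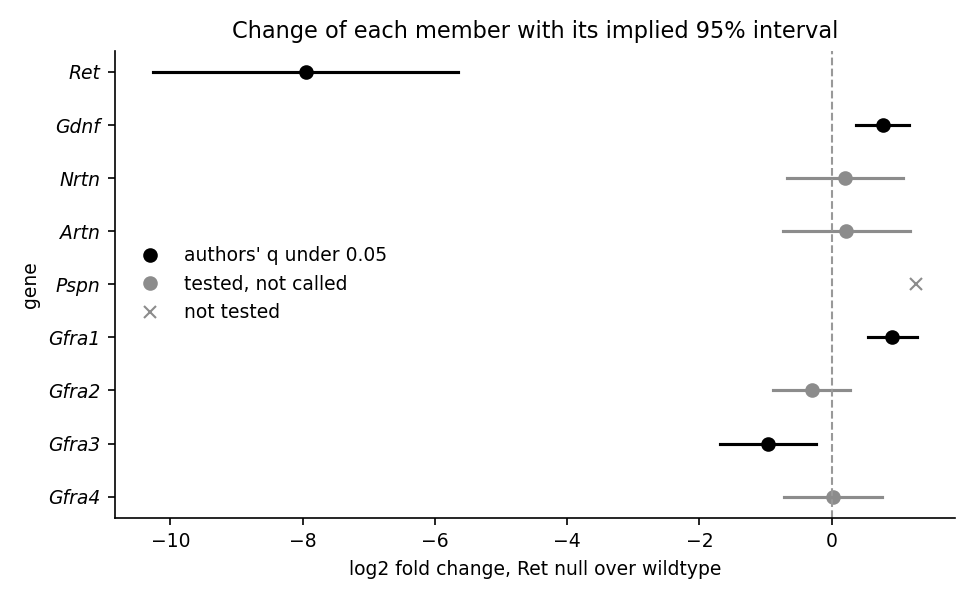
The log2 fold change (Ret null over wildtype) of each gene on the x axis, with bars for the 95% interval implied by the authors' test statistic. Black marks the 4 genes called at q under 0.05, grey the 4 tested and not called, and the cross Pspn, which was not tested and has no interval. The bars of Nrtn, Artn, Gfra2 and Gfra4 cross 0.

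Gfra1 held a larger share of the co-receptor values in Ret null gut. The 4 co-receptors summed to 28.2 FPKM in wildtype guts and 38.5 FPKM in Ret null. Gfra1 made up 52.6% of the sum in wildtype and 72.8% in Ret null. Gfra3 went from 16.6% to 6.22%, Gfra2 from 13.3% to 7.94% and Gfra4 from 17.5% to 13.0%. In wildtype gut Gfra4, Gfra3 and Gfra2 lay within 3.77 to 4.94 FPKM, and in Ret null gut Gfra3 was the lowest of them. The ratio of Gfra1 to Gfra3 was 3.17 in wildtype and 11.7 in Ret null.

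The ratios of ligand to preferred co-receptor also differed between genotypes. Gdnf and Gfra1 both rose, so that there were 1.70 FPKM of Gfra1 per FPKM of Gdnf in wildtype and 1.89 in Ret null. For artemin the co-receptor fell while its ligand did not pass, and there were 3.63 FPKM of Gfra3 per FPKM of Artn in wildtype and 1.59 in Ret null. For neurturin there were 1.44 FPKM of Gfra2 per FPKM of Nrtn in wildtype and 1.02 in Ret null, with neither gene called. Gfra1 exceeded Ret 1.69-fold in wildtype gut and 792-fold in Ret null gut. The size of the latter rests on a Ret value near 0, 0.0354 FPKM, in the genotype that lacks Ret by design. No test of these ratios was run, since they come from 1 value per genotype.

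**Figure D3:**
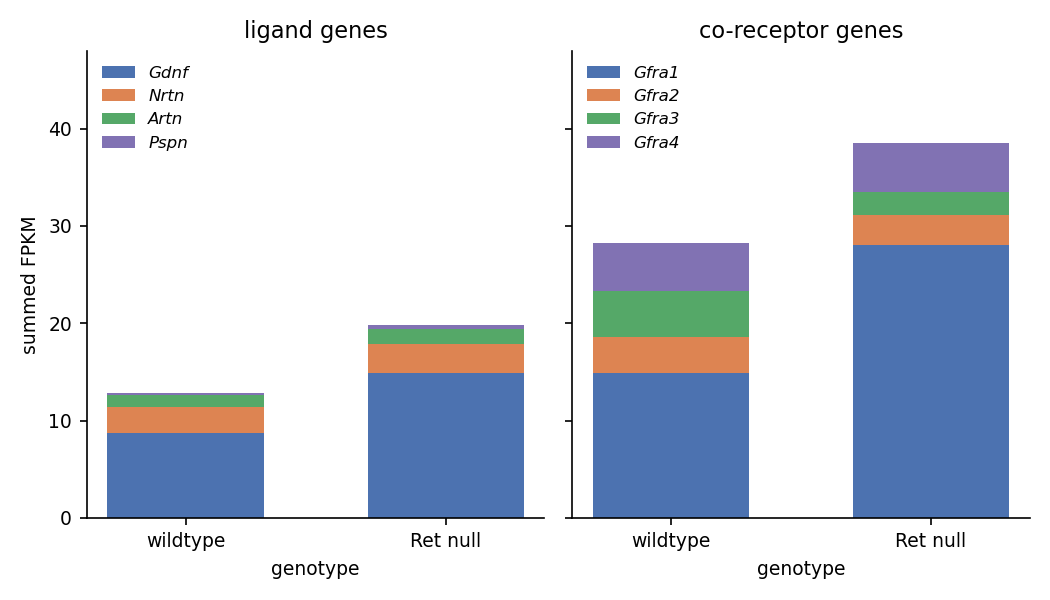
Summed FPKM of the 4 ligand genes (left) and of the 4 co-receptor genes (right) in wildtype and Ret null gut, with bars starting at 0 and split by gene. The sums for wildtype and Ret null are 12.8 and 19.8 FPKM for the ligands and 28.2 and 38.5 FPKM for the co-receptors, and Gdnf and Gfra1 fill most of each bar.

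Gdnf and Gfra1 are the members whose levels rose together, and their promoter sequences are shown for that reason. RefSeq promoters (GRCm38.p6, the same assembly as mm10; 250 bases before to 50 after an annotated start) were found for 6 of the 9 genes. Capitals mark matches on either strand to any of 6 short motifs: the TATA box TATAAA, the cAMP response element core TGACG, the GC box GGGCGG, the forkhead core TAAACA, the SOX core AACAAT and the homeodomain core TAATTA. The Gdnf promoter is at chr15:7809798-7810097 on the plus strand and the Gfra1 promoter at chr19:58455349-58455648 on the minus strand, each written 5′ to 3′ along its gene.
Gdnf: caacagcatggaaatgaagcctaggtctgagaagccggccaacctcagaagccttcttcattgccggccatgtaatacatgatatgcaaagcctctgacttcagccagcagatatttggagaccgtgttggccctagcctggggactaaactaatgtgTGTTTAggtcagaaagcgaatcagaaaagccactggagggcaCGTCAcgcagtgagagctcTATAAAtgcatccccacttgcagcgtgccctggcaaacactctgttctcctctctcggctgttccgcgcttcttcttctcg
Gfra1: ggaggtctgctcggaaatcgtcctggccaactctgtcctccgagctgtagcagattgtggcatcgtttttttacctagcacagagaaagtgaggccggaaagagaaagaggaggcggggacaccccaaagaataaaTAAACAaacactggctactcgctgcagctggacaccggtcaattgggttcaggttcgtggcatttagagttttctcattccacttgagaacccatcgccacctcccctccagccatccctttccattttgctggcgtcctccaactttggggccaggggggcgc

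In the Gdnf sequence TATAAA starts at position -31 from the start site (minus for bases before it), TGACG on the other strand at -50 and TAAACA on the other strand at -92. In the Gfra1 sequence TAAACA starts at -114, and no other motif matched. Of 32851 RefSeq promoters of this length 13.4% hold TAAACA, 13.6% TATAAA and 20.8% TGACG, so none of these matches is rare, and each describes only these letters. A second Gdnf promoter, at a start site inside the gene (chr15:7813477-7813776), held none of the 6 motifs. The start sites of the printed promoters lie 963 bases outside the Gdnf line and 932 bases outside the Gfra1 line, so reads from those first bases are not part of the lines' spans.

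The other lines' positions bear on what each value counts. The Gdnf line covers chromosome 15 from 7811011 to 7837575 on the plus strand, and GENCODE lists 1 transcript of 3674 bases in 3 exons. The Gfra1 line covers chromosome 19 from 58236692 to 58454466 on the minus strand, where GENCODE lists 9 transcripts. A separate untested line, Gm10007, lies inside the Gfra1 span and stood at 0.397 FPKM in wildtype guts and 0.106 in Ret null, far below Gfra1. The Gfra3 line covers chromosome 18 from 34689903 to 34720387 on the minus strand, with 1 transcript of 8 exons. Gfra4, on chromosome 2 from 131039632 to 131043088, overlaps a microRNA gene, Mir6973b, by 80 bases. The remaining lines are Nrtn on chromosome 17 (56751325 to 56757530), Pspn on chromosome 17 (56999457 to 57000018), Artn on chromosome 4 (117926162 to 117929763) and Gfra2 on chromosome 14 (70890130 to 70979838).

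None of the tested lines directly next to the called members was called, but lines further off were. Egflam and Wdr70, on either side of Gdnf, had log2 changes of 0.01 and -0.01. Atrnl1, the line below Gfra1, had -0.25 (q = 0.0827 in the authors' deposited table), and Ccdc172 on the other side was listed at 0 in both genotypes. Kif20a and Cdc25c, beside Gfra3, had -0.01 and 0.05. Within 1 Mb on each side of Gdnf 3 of 7 tested lines were called (42.9%, against 14.6% of all tested lines), and all 3 fell while Gdnf rose. They were Lifr, Nipbl and Slc1a3, named after their values were seen, at -0.82, -0.61 and -0.56 on the log2 scale. Around Gfra1 4 of 12 were called (33.3%). Of these, also named after their values were seen, Pnliprp1 and 4930506M07Rik rose and Slc18a2 and Emx2os fell. These lines near Gdnf and Gfra1 all had q = 0.000775 in the authors' deposited table. Around Gfra3 2 of 27 were called (7.41%), Apc and Reep2, chosen for naming in the same way, and both fell (q = 0.000775 and 0.00468 in the authors' deposited table). Beside the uncalled Gfra4, Atrn fell by 0.41 on the log2 scale (q = 0.00517 in the authors' deposited table).

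**Figure D4:**
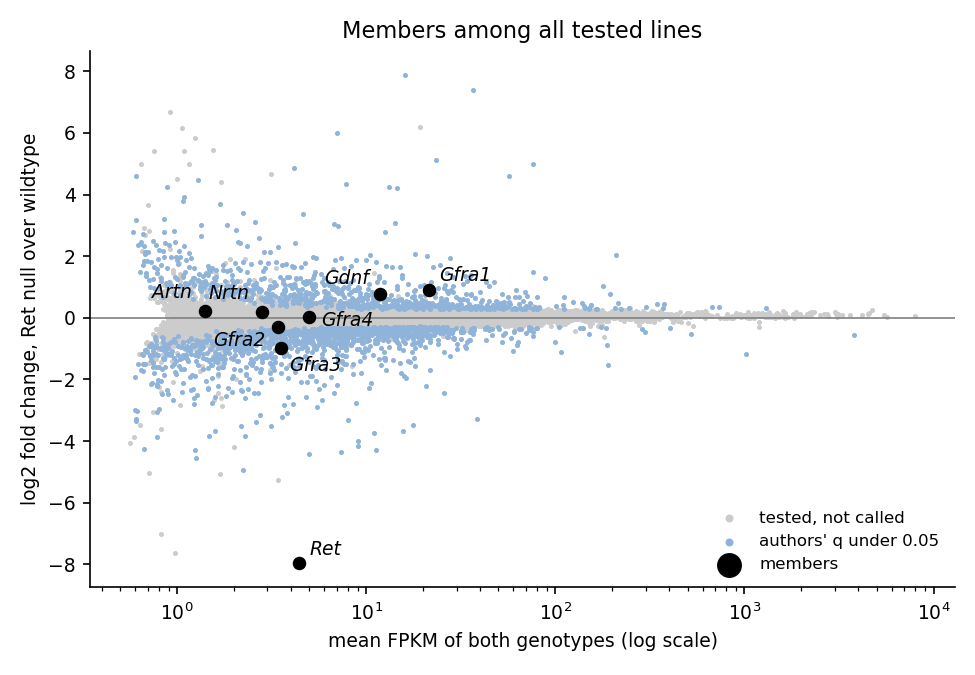
All tested lines above 0 in both genotypes, with the mean FPKM of the genotypes on a log x axis and the log2 fold change (Ret null over wildtype) on the y axis. Blue points passed q under 0.05, grey points did not, and the 8 tested members are black and named. Ret lies at the bottom of the plot. Gdnf and Gfra1 lie above most uncalled lines, though some uncalled lines lie higher.

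Against all tested lines the members were of modest abundance. In wildtype gut Gfra1 exceeded 58.1% of tested lines in FPKM, Ret 41.6% and Gdnf 41.3%, and in Ret null gut Gfra1 exceeded 77.0% and Gdnf 58.2%. By log2 change Gfra1 exceeded 97.4% of tested lines and Gdnf 96.7%. Among the 764 genes that rose, however, Gfra1 ranked 291 and Gdnf 359 by fold change, and Gfra3 ranked 370 among the 1192 that fell.

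The genes most like each called member were sought among 13228 other tested lines by distance in the pair of log2(FPKM + 1) levels, which is a likeness over 2 values only. The 3 nearest to Ret were Sln, Mir697 and Tnnc2, at distances of 0.40 to 0.49, and Tnnc2, a troponin of skeletal muscle, was the only 1 of them called. No line came within 0.2 of Ret. Nearest to Gdnf were Cpox, Snora70 and Cd55, nearest to Gfra1 were Lrig1, Isl1 and Psd, and nearest to Gfra3 were A930013F10Rik, Ebf1 and Kif5c. Within a distance of 0.2 there were 13 lines for Gdnf, 5 for Gfra1 and 41 for Gfra3 among the 13228, so other genes share the levels of each.

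Most markers of the crest cells that carry Ret fell as well. Genes described below as risen or fallen without a q had the table's smallest, 0.000775. The marker and pathway lists below were chosen with earlier results of these data known, so their shares called are descriptions and not independent evidence. Of 10 enteric neural crest markers 8 fell and 1 rose (90% called, against 14.6% of all tested lines). Their median log2 change was -1.42, and their levels summed to 128.7 FPKM in wildtype guts and 100.2 in Ret null. Sox10, a transcription factor of migrating crest and glia, went from 9.15 to 2.89 FPKM. The 1 marker not called was Ednrb, named after its values were seen, at 18.8 and 17.5 FPKM (q = 0.693 in the authors' deposited table). The riser was Hand2 (log2 change 0.30, q = 0.0296 in the authors' deposited table), named after its value was seen, which gut mesenchyme also makes and which holds the largest share of the sum. The fall of Ret (-7.96) was larger than that of any of these markers. At the normal p 6 were lower and 0 higher, against 2.78% and 1.72% of all tested lines. None of these markers was at 0 in either genotype, and the part of crest cell number in the value of Ret was not tested. In whole gut, fewer cells of a type and less RNA per cell cannot be told apart.

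Gfra3 fell beside neuronal and glial markers. Of 10 markers of enteric or autonomic neurons 9 fell and 0 rose (90% called, against 14.6% of all tested lines). They summed to 193.6 FPKM in wildtype guts and 90.8 in Ret null. Chrna3, a nicotinic receptor subunit, was at -2.60 ± 0.47 and Tubb3, a neuronal tubulin, at -1.78 ± 0.25. At the normal p 7 of the 10 were lower and 0 higher, against 2.78% and 1.72% of all tested lines. Of 7 tested Schwann precursor and glial markers 5 fell and 0 rose (71.4% called). Among the falls were Sox10, Dhh, Cdh19 and, named after its value was seen, Erbb3. The glial list summed to 42.0 and 27.6 FPKM. Dhh, a Schwann cell signal, went from 6.47 to 1.91 FPKM, while Fabp7, named after its values were seen, stood at 8.51 and 8.66 FPKM. Cdh19 had q = 0.00145 and Erbb3 0.0484 in the authors' deposited table. At the normal p 2 were lower and 0 higher. Of 5 tested sensory ganglion markers 3 fell, Ntrk2 and Ntrk3 among them, and Isl2 rose (80% called). The sensory list summed to 23.1 and 19.1 FPKM. At the normal p 1 of the list was lower and 1 higher. The sensory determinants Neurog1, Neurog2 and Pou4f1 were at most 0.206 FPKM in wildtype, with Neurog1 listed at 0 in Ret null. The part of these cells in the value of Gfra3 was not tested.

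Gdnf and Gfra1 rose beside gut mesenchyme markers. Of 12 gut mesenchyme and smooth muscle markers 9 rose and 1 fell (83.3% called, against 14.6% of all tested lines). Their median log2 change was 1.16, and their levels summed to 400.5 FPKM in wildtype guts and 881.1 in Ret null. Barx1, a stomach mesenchyme factor, went from 4.46 to 109 FPKM, Myh11, the smooth muscle myosin, from 6.93 to 29.1 FPKM, and Actg2, an enteric actin, from 39.8 to 113 FPKM. The faller was Des, named after its value was seen, at -0.46 (q = 0.00206 in the authors' deposited table). With the normal p 8 were higher and 0 lower, against 1.72% and 2.78% of all tested lines. The log2 changes of Gdnf (0.77) and Gfra1 (0.92) lay below the median of this list. The part of mesenchyme in the values of Gdnf and Gfra1 was not tested.

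The nephric duct and the kidney mesenchyme beside it also use this pathway, and their markers were split. Of 11 tested nephric markers 7 fell and 3 rose (90.9% called, against 14.6% of all tested lines). The list of 12, with 1 untested gene, summed to 120.9 FPKM in wildtype guts and 108.7 in Ret null. Calb1 (-3.82 ± 0.59), Pax2 (-2.43 ± 0.46) and Emx2 (-1.84 ± 0.27), genes of the nephric duct, were among the falls. Among the risers were Six2 and Osr1, both singled out after seeing their values. By the normal p 5 nephric markers were lower and 2 higher, against 2.78% and 1.72% of all tested lines. Of 3 tested markers in the spinal motor neuron list, another cell type with Ret, all rose, and these were Isl1, Isl2 and Mnx1 (q = 0.00145 for Mnx1 in the authors' deposited table). Isl1 and Mnx1 also serve in the pancreatic bud. The motor neuron genes Olig2, Lhx3, Lhx4 and Chat were untested and at most 0.208 FPKM in either genotype, with Olig2 at 0 in both. Slc18a3, the vesicular acetylcholine transporter, was untested at 0.775 and 0.273 FPKM. The part of nephric tissue in the values of Ret, Gdnf and Gfra1 was not tested.

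Other partners of Ret and of its ligands had small changes. Of 4 tested partners 2 fell and 0 rose (50% called, against 14.6% of all tested lines, median log2 change -0.24). Gas1, a cell surface protein related to the co-receptors, stood at 79.8 FPKM in wildtype guts and 65.1 in Ret null (log2 change -0.29 ± 0.16, q = 0.0362 in the authors' deposited table). Sorl1, a sorting receptor that carries Gdnf and Gfra1 inside the cell, stood at 3.12 and 2.26 FPKM (-0.47 ± 0.26, q = 0.0137 in the authors' deposited table). Neither passed with the normal p or at q under 0.01. Gfral, the distant co-receptor that links Gdf15 to Ret, was listed at 0 in both genotypes.

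Downstream of Ret, most adaptors did not pass. Of 31 tested adaptors and effectors 2 fell and 3 rose, which is 16.1% against 14.6% of all tested lines, with a median log2 change of -0.06. The 2 falls were Cbl, a ubiquitin ligase that ends receptor signalling (7.28 to 1.72 FPKM, -2.08 ± 0.28), and the adaptor Gab2 (-0.44 ± 0.20, q = 0.00206 in the authors' deposited table). The rises named by rule were the adaptor Grb7 (1.11 ± 0.23) and Pdlim7, a LIM-domain protein that binds Ret (0.45 ± 0.22, q = 0.00372 in the authors' deposited table). The third, named after its value was seen, was Cblc, which went from 0.290 to 1.05 FPKM (q = 0.0175 in the authors' deposited table). Cbl and Grb7 passed with the normal p as well. The share called in this list was near the background.

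Genes that report Ret or ERK kinase activity in other tissues were mostly not called. Of 15 tested 3 fell and 1 rose (26.7% called, against 14.6% of all tested lines, median log2 change -0.16). Dusp6, a phosphatase induced by ERK, went from 33.0 to 21.3 FPKM (-0.63 ± 0.18), and Dusp4, another ERK phosphatase, fell by 0.47 ± 0.24 (q = 0.0156 in the authors' deposited table). The riser was Myc. The ETS factors Etv4 and Etv5, targets of Gdnf and Ret in the kidney, were named after their values were seen, at -0.30 ± 0.24 and -0.17 ± 0.19, and did not pass. At the normal p 2 were lower and 0 higher.

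Upstream, of 11 tested regulators of Ret transcription 5 fell and 2 rose (63.6% called, median -0.63). The falls included Sox10 at -1.66 ± 0.30, and, named after their values were seen, Gata2 at -0.63 ± 0.21 and Gata3 at -0.82 ± 0.28. The risers were Nkx2-5, by 2.14 ± 0.48, and Hand2, named after its value was seen, by 0.30 ± 0.16 (q = 0.0296 in the authors' deposited table). Several of these genes are also in the crest list. Of 15 tested genes listed as regulators of Gdnf in kidney and gut mesenchyme 10 fell and 2 rose (80% called, median -0.83). Eya1, Pax2 and both risers are also in the nephric list. The falls held both activators and genes known to restrict Gdnf, so the count gives no single direction of regulation. Sall1 went from 5.51 to 1.61 FPKM and Eya1 from 5.91 to 2.11 FPKM, both activators of Gdnf in kidney mesenchyme. Foxc1, Robo2 and Slit2, which restrict where Gdnf is made beside the nephric duct and were named after their values were seen, fell by 0.97, 0.45 and 0.38 on the log2 scale (q = 0.00145 for Slit2 in the authors' deposited table), while Six2 rose from 13.1 to 27.4 FPKM and Osr1 was the other riser. At the normal p 3 regulators of Ret were lower and 1 higher, and 6 regulators of Gdnf were lower and 2 higher. These lists were read against 14.6% of all tested lines, and no test of a list was run.

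**Figure D5:**
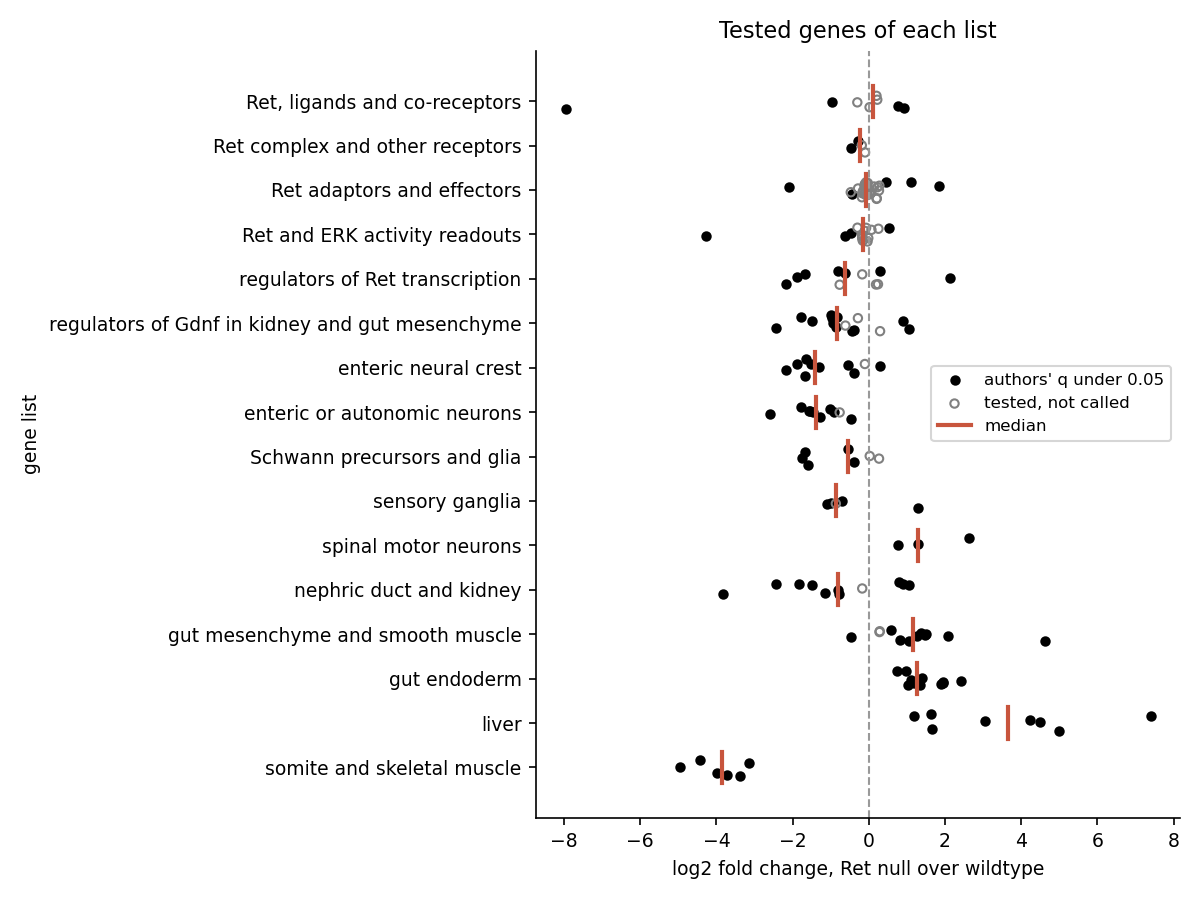
The log2 fold change (Ret null over wildtype) of every tested gene in each list, with filled points for genes at q under 0.05, open points for those not called and a bar at each list's median. Adaptors of Ret cluster around 0, crest and neuronal lists lie to the left, and gut mesenchyme, endoderm and liver lists lie to the right, while the ligands and co-receptors fall on both sides.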

How the data were processed

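RNA was selected with oligo-dT beads before Illumina TruSeq library preparation, per the labels' protocols. The submitters' processing notes name Picard, TopHat2, Cufflinks, Cuffdiff and build mm10. Versions, settings and annotation were not given in the sources used here. Values are thus taken as deposited. The deposited table holds the authors' FPKM per genotype, with their test statistic (a score), p-value and q-value for each line. Its genotype letters w and h were taken as wildtype and homozygote, and Ret is near 0 under h. Of 23234 lines 1 with a pair of records run together was not used. The authors marked 13430 lines as tested, 9802 as not tested and 1 as having too many reads.

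Log2 fold changes were recomputed with Python 3.11.15 and pandas 2.3.3 from the FPKM values without a pseudocount, because 590 cells of the deposited log2 column hold error text. The implied standard error is that log2 fold change over the authors' test statistic, and 95% intervals take it as normal. The q-values were not made from these errors: they equal a Benjamini-Hochberg adjustment of the authors' p-values to within 5.94e-05, and 867 lines share the smallest p-value, 5e-05. The adjustment of normal p-values was tested on data simulated as normal deviates. That checks the computation and cannot show whether the authors' test statistics are normal. Median implied errors were 0.39 from 1 to 5 FPKM and 0.22 from 5 to 20 FPKM, and depth is unknown. Nothing says that samples came from separate litters, so the authors' p-values cannot be read as covering the spread between litters. Without values per sample, the spread that they do measure cannot be seen. Starts were raised by 1 to count from 1. The labels do not say whether strand was kept, so overlapping genes may share reads.

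The 9 members, 5 pathway lists and 11 marker lists were chosen with earlier results of these data known. Named genes were the members, their neighbouring lines, the 3 nearest lines in level per called member, in each list up to 4 called genes ordered by q and next by size of change, and the sex-linked genes. Genes outside this rule are named as chosen after their values were seen or to show markers near 0. Some genes that the rule names are not reported here, and the counts include them. Alternatives were q under 0.01 and 0.1, a minimum of 1 or of 5 FPKM, at least 1.5-fold, the normal p, 1 or 0.1 FPKM added, and 2 other scalings.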

Additional observations from a re-analysis of the deposited data

How the results depend on the processing

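No paired analysis was possible because the table holds 1 value per genotype and none per sample, and leaving out a replicate could not be run for the same reason. The counts of members called held at q under 0.01, q under 0.1, a 1 FPKM minimum and a 1.5-fold minimum. A 5 FPKM minimum left 1 member lower, as did the normal p, and in each case Gfra3 was the member lost. The number higher stayed at 2 under every rule run. The log2 fold change of Ret was -3.24 with 1 FPKM added and -6.04 with 0.1 FPKM added. That of Pspn, which has no error, was 0.29 with 1 FPKM added, 0.94 with 0.1 FPKM added, 1.22 with FPKM rescaled to an equal sum per genotype and 1.26 when centred on the median of lines at 1 FPKM or more. Gfra4, not called, was -0.031 after rescaling, and every other log2 fold change of a member kept its sign and moved by less than its implied error under these settings. Over the pathway lists together, the normal p left 12 genes lower and 4 higher, of 22 and 8, and the 1.5-fold minimum left 5 higher. Over all tested lines the normal p called 604 genes, against 1956.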
